A study of Rattus norvegicus with 4 samples.

Results

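The 10 genes described here belong to the Notch pathway and were taken by gene symbol from the deposited counts of rat OLN93 cells. They are the receptors Notch1, Notch2 and Notch3, the ligands Jag1, Jag2 and Dll1, the transcriptional targets Hes1, Hes5 and Hey1, and the related Hes6. Of 17327 gene symbols in the count files, 9 were members, because Jag2 had no row there. OLN93 is a spontaneously immortalized oligodendroglial line, and RNA-Seq compared 2 control libraries carrying intact Sox10 with 2 Sox10-deficient libraries. The deficient libraries came from clones A and B, in which Sox10 had been inactivated by CRISPR/Cas9 with different guide RNAs, so that each is 1 clone. The labels call the controls biological replicates, whereas the study's methods describe them as clones. All cells were grown in DMEM with 10% FCS, and the labels name no other agent or allele. Where control and deficient cells came from single clones, an effect of Sox10 loss and a difference between clones cannot be told apart.

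Notch receptors are cut after binding a Jagged or Delta ligand on a neighbouring cell, and the released intracellular domain joins the DNA-binding protein Rbpj to activate Hes and Hey genes. Hes and Hey proteins are bHLH repressors. In oligodendroglial cells, Notch signalling is known for holding precursors in an undifferentiated state, and Hes5 is known as a repressor of myelin genes. Sox10 is the HMG-domain factor on which oligodendroglial differentiation depends.

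The deposited counts were shallow, with between 60951 and 104017 per library, and between 7319 and 8280 gene symbols had a count. These totals lie far below the number of reads that the methods state for a library, and the reason is not given in the sources used here, so that depth below means that of the deposited counts. Counts were scaled by edgeR's TMM method to CPM, which divides by an effective library size, and 3 counts, the floor used per library, corresponded to between 29.0 and 48.2 CPM. This floor covers counting error only. Sox10 had 28 and 64 counts for controls 1 and 2, then 0 for clone A and 14 for clone B, a log2 fold change of -2.74 ± 0.62 (SE; edgeR adjusted p = 0.0172). The call was lost with DESeq2 (log2 fold change -2.74, adjusted p = 0.999). It was also lost in the edgeR fits without control 2 (-2.49, adjusted p = 0.447) and without clone A (-1.75, adjusted p = 0.0695), whereas leaving out clone B gave -8.51. Of 11 oligodendroglial markers, 10 had a count, all but Mag, and the list summed to between 2652 and 2891 CPM in the controls and between 1701 and 1827 CPM in the clones. Cnp had 62 and 68 counts for controls 1 and 2, then 35 for clone A and 20 for clone B. Its log2 fold change was -1.36 (edgeR adjusted p = 0.0331). Sox10 and Cnp were then left out, a pair chosen after their values were seen, as the markers of this list called lower. Without them, the list summed to 1445 and 1375 CPM in the controls and 1422 and 1315 CPM in the clones. A smaller difference between the groups follows from that choice and is no result about the remaining markers. This sum joined changes in both directions. Cspg4 and Pdgfra were fitted higher, with log2 fold changes of 0.93 and 0.22 (edgeR adjusted p = 0.196 and 0.860). Nkx2-2 and Mog were fitted lower, at -0.77 and -0.40 (edgeR adjusted p = 0.359 and 0.818). Olig1 had 12 and 1 counts for controls 1 and 2, Olig2 had 7 and 0, and both had 0 in the clones. The deposited counts of Nkx2-2, Mog, Olig1 and Olig2 were high against the authors' mean counts, as given below. Schwann cell and neural crest markers summed to between 1355 and 1397 CPM in the controls and between 204 and 254 CPM in the clones, with Foxd3 not listed. Astrocyte markers lay between 0 and 45.4 CPM, with 4 of 6 listed at 0 in all libraries. Neuronal markers lay between 45.4 and 174 CPM, with 4 of 6 likewise. Microglial markers lay between 79.4 and 203 CPM, with 3 of 6 listed at 0 in all libraries. Endothelial and mural markers lay between 0 and 96.4 CPM, with 4 of 6 likewise. The part of these differences in the values below was not tested.

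The promoters of the members show which genes carry letters that fit Rbpj. Windows of 300 bases, from 250 before to 50 after the annotated start, were available from RefSeq on assembly GRCr8 for 9 of the 10 members, with 2 windows for Jag2 and none for Hey1. The counts were made on rn5, so that these positions do not apply to them. The letters TGGGAA, the core that Rbpj binds, were searched on both strands and are shown in capitals, as TTCCCA where the match lay on the other strand. Hes1, Hes5 and Dll1 are printed because each held 2 matches. Hes1 and Dll1 had their higher counts in the clones, whereas Hes5 had 3 counts in control 2 and none elsewhere. Counts of these genes reached no more than 5 in a library.
Hes1 (chr11:84212996-84213295, minus strand): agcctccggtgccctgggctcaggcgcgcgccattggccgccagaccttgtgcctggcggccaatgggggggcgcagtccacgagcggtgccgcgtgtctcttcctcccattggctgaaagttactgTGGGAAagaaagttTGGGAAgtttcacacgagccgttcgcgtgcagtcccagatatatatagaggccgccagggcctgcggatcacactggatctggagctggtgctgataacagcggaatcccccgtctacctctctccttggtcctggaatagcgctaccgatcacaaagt
Hes5 (chr5:170804327-170804626, plus strand): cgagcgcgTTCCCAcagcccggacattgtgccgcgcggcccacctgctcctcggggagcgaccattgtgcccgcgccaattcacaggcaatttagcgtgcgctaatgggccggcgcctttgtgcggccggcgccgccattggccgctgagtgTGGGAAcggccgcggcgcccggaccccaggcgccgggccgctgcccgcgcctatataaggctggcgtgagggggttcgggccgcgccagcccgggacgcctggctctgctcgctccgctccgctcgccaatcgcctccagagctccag
Dll1 (chr1:64993225-64993524, minus strand): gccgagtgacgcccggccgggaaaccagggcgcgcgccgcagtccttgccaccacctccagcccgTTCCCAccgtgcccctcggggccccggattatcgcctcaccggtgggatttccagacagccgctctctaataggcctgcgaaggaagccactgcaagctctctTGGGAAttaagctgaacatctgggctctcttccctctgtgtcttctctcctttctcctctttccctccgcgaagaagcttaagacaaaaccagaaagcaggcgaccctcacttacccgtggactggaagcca

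In Hes1 both matches lay on the same strand with starts 14 bases apart, at positions -123 and -109 from the annotated start. In Hes5 the starts were 144 bases apart and in Dll1 103 bases apart, on opposite strands in both genes. Notch3 held a single match, so that 4 of the 9 members with a window had TGGGAA, whereas 25.7% of all 33469 rat promoter windows did. Sox factors bind short AT-rich sites, and the letters ACAAAG occurred in Hes1, Hes5 and Hes6, against 18.8% of all windows. ACAAT occurred in Jag1 and Hes5, against 33.7% of all windows. A match describes letters in a window and is not a binding site.

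**Figure D1:**
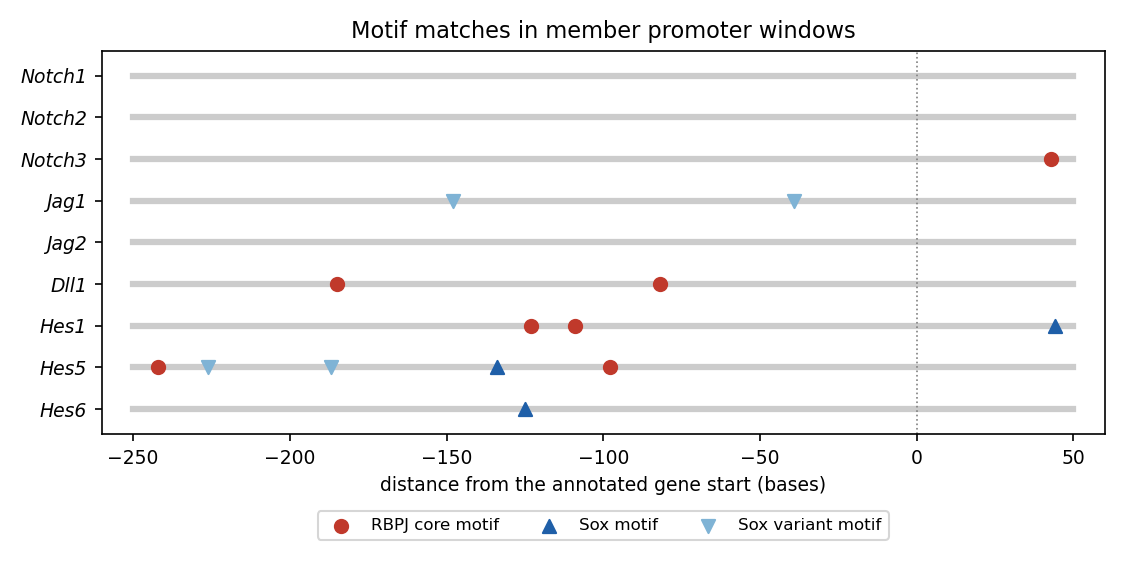
Positions of motif matches in the promoter windows of 9 members, with the distance from the annotated start in bases on the horizontal axis, 1 line per gene, and circles for TGGGAA, upward triangles for ACAAAG and downward triangles for ACAAT on either strand. Hes1 holds 2 circles with starts 14 bases apart, and Notch1, Notch2 and Jag2 (both of its windows) hold no symbol.

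Of the 9 members with a row, 7 had at least 1 count, and the members together had 36 and 69 counts for controls 1 and 2, then 51 for clone A and 45 for clone B. Of these 201 counts, 173 fell on Notch1 and Notch2. Counts are not corrected for gene length, so that they do not rank the members by level. Genes were tested where edgeR's filterByExpr kept them, which left 2438 genes and, of the members, Notch1 and Notch2 alone. Neither passed. At a threshold of 0.05 on the adjusted p, the share of all tested genes that passed was 2.5% for lower and 1.19% for higher values in the clones. By an unadjusted p of 0.05 or less and at least a 2-fold change, 6.97% were lower and 4.63% were higher. The study used a p of 0.05 and a 2-fold change for downregulated genes and names no adjustment. Of the members, 0 of 2 passed at an unadjusted p of 0.05 or less with edgeR, and 0 of 2 with DESeq2.

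Notch1 (ENSRNOG00000019322), a receptor that precursors carry, had 11 and 33 counts for controls 1 and 2, then 22 for clone A and 15 for clone B. This gave 177 and 319 CPM in the controls against 254 and 170 CPM in the clones. Control 2 was the highest library and clone B the lowest, and the groups overlapped. The means were 248 ± 101 CPM (SD, n = 2) and 212 ± 59.6 CPM (SD, n = 2). The log2 fold change was -0.28 ± 0.44 (SE; edgeR adjusted p = 0.868), with a 95% interval from -1.20 to 0.64. Control 2 decided the sign, since without it the log2 fold change was 0.24. In bulk RNA, fewer cells carrying a transcript and less of it per cell cannot be told apart.

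Notch2 (ENSRNOG00000018835), the paralogue with the same ligand-binding and cleavage mechanism, had 20 and 30 control counts, set against 20 and 22 in the clones. The 321 and 290 CPM of the controls lay above the 231 and 249 CPM of the clones, so that the groups did not overlap. The means were 306 ± 21.8 CPM (SD, n = 2) in the controls and 240 ± 12.9 CPM (SD, n = 2) in the clones. The log2 fold change was -0.34 ± 0.38 (SE; edgeR adjusted p = 0.788), with a 95% interval from -1.14 to 0.47. As folds of the control level, the intervals of this edgeR fit ran from 0.437 to 1.56 for Notch1 and from 0.452 to 1.39 for Notch2. A 2-fold decrease lay inside both of these intervals and a 2-fold increase outside both. With DESeq2, Notch1 was fitted at -0.24 with a larger SE of 0.680, where a 2-fold increase was not excluded.

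Over the 4 libraries, the 3 tested genes whose log2(CPM + 10) followed Notch2 most closely were Ddx1, Scrn1 and Trpc4ap, with Pearson's r of 1.000, 0.999 and 0.999. They were picked as the highest of all tested genes, and Pearson's r does not show the size of a change. Ddx1 had 21 and 25 control counts, set against 10 and 13 in the clones. For Scrn1 these were 24 and 25 against 8 and 11, and for Trpc4ap 14 and 20 against 11 and 13. With 4 libraries that share their scaling, the r values are a description of the pattern.

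Notch3 (ENSRNOG00000004346), a receptor best known from smooth muscle and pericytes, had 0 counts in all 4 libraries. Over these 340913 counts, 0 counts allow a level of up to 8.82 CPM if it is the same in all 4 libraries. Taken by group, the limit was 18.1 CPM for the controls and 17.2 CPM for the clones. These limits cover counting error only. Notch1 and Notch2 were thus the only receptors among the members with counts.

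**Figure D2:**
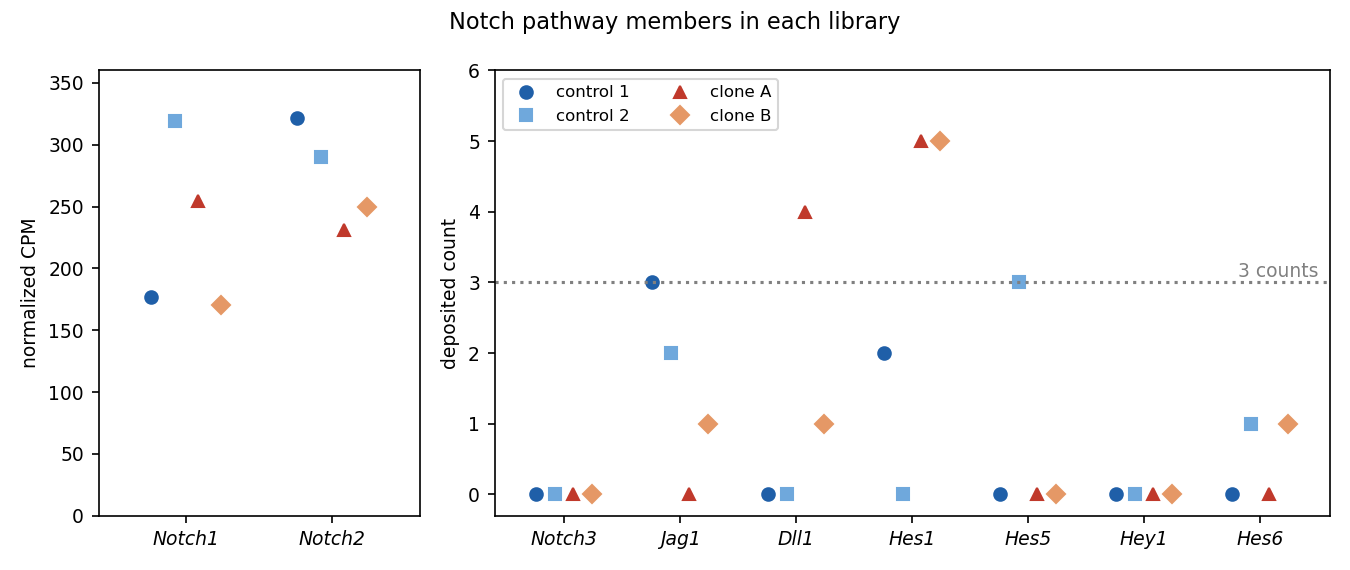
Values of the members in each library, with normalized CPM of Notch1 and Notch2 on the left and deposited counts of the other listed members on the right (circles and squares, controls 1 and 2; triangles and diamonds, clones A and B; dotted line, the floor of 3 counts). The groups are separate for Notch2 on the left, and for Jag1, Dll1 and Hes1 on the right, where counts reach no more than 5.

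Among the ligands, Jag1 (ENSRNOG00000007443), which signals to Notch from neighbouring cells, had 3 and 2 counts for controls 1 and 2, then 0 for clone A and 1 for clone B. Dll1 (ENSRNOG00000014667), a Delta ligand of neural progenitors, was at 0 in both controls and had 4 counts for clone A and 1 for clone B. The Jag1 counts were at or under the floor in all 4 libraries, and the Dll1 counts exceeded it in clone A alone, with a mean over both clones of 28.8 CPM, below the floor. No fold change is given for either gene. In GRCr8, Dll1 overlaps Fam120b, which had 4, 0, 7 and 5 counts in control 1, control 2, clone A and clone B, and the labels name a stranded kit without the strand setting of the counting. Its part in the Dll1 counts was not tested. Jag2, a further Jagged ligand, had no row to read.

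Hes1 (ENSRNOG00000001720), the most general Notch target, had 2 and 0 control counts, set against 5 for each clone. This corresponded to 32.1 and 0 CPM in the controls against 57.8 and 56.7 CPM in the clones, and the groups did not overlap. Both control counts lay under the floor of 3 counts, so that the control level rests on 2 counts. Pooled over each group, the clones had 4.74 times the control level. The 95% exact interval of this ratio ran from 1.01 to 44.5 and covers counting error between these libraries only. Control 2 decided the size, since without it the log2 ratio was 0.83 in place of 2.24. When every gene with a count was fitted, the edgeR test gave Hes1 an adjusted p of 0.895.

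Hes5 (ENSRNOG00000013850) had 3 counts in control 2 and 0 in the other libraries, and Hes6 (ENSRNOG00000020194), a relative that counteracts Hes1, had 1 count each in control 2 and clone B. Hey1 (ENSRNOG00000011593), a Notch target best known from the heart and vessels, had 0 counts in all 4 libraries. As for Notch3, this allows up to 8.82 CPM over all 4 together, or 18.1 CPM in the controls and 17.2 CPM in the clones. A difference in Hes5, Hes6 or Hey1 was not detectable at this depth. Hes5 overlaps Pank4 in GRCr8, which had 2, 2, 3 and 2 counts in control 1, control 2, clone A and clone B. Hes6 overlaps LOC134480412, which had no row to read.

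Across the 7 members with counts, the CPM of the groups did not overlap for 4. Notch2 and Jag1 were lower in both clones, and Dll1 and Hes1 were higher. Of all 10024 genes with a count, 15.8% were lower in both clones without overlap and 17.6% were higher. In a fit without a filter on low counts, 0 of the 7 members passed an unadjusted p of 0.05 or less, where 3.28% of the 10024 genes were called lower and 2.94% higher by that p and a 2-fold change. The adjusted p of the 7 members in this edgeR fit lay between 0.843 and 1.00.

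The authors' table of mean normalized counts per gene, whose values sum to 19320879, shows how many counts each member could be expected to have. Over 5353 genes with an authors' mean of 500 or more, the median gene had 0.384% of that mean as its deposited count in a library. The authors' mean was 4480 for Notch1 and 4441 for Notch2, and their deposited counts were 1.18 and 1.35 times the count that this share gives. For Hes1 the authors' mean was 307, and for Dll1 it was 174, with deposited counts of 2.54 and 1.87 times. Hes6 had an authors' mean of 566 and a deposited count of 0.230 times. Hey1 had an authors' mean of 47, which gives 0.181 counts per library. For Notch3 the authors' mean was 0 and for Jag2 it was 1.

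Jag1 and Hes5 stood apart from this scale. Jag1 had an authors' mean of 20, so that its mean of 1.5 deposited counts per library was 19.5 times the count that the share gives. Hes5 had an authors' mean of 0 but 3 deposited counts. Among 7807 genes with an authors' mean and at least 1 deposited count per library on average, 13.1% exceeded the share by more than 10 times. Among the markers, Mog and Olig2 had an authors' mean of 0 beside 54 and 7 deposited counts, and Csf1r, with 26 of the 42 microglial counts, had 130 times the count that the share gives. For Nkx2-2 and Olig1 it was 5.06 and 5.53 times, less than the 10 times used above. The cause was not tested.

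**Figure D3:**
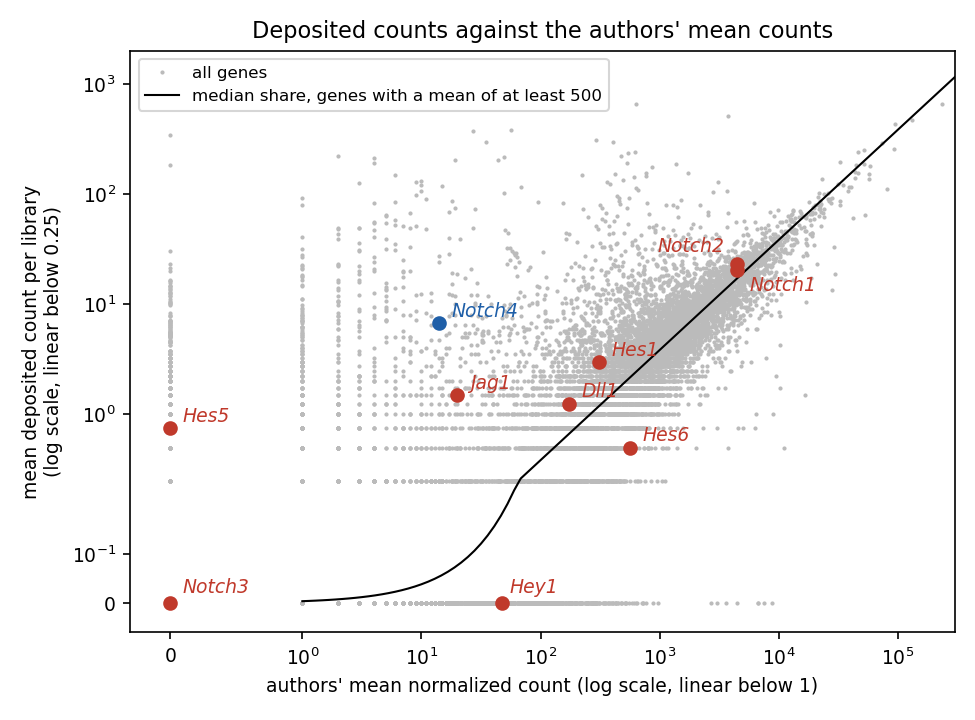
Mean deposited count per library against the authors' mean normalized count, 1 point per gene, both axes logarithmic and linear near 0, with a line for the median share of 0.384%, members in red and Notch4 in blue. Notch1 and Notch2 lie near the line, whereas Jag1, Hes5 and Notch4 lie above it.

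The rest of the pathway was read from 58 further genes, of which 51 had a row, 37 had a count and 11 could be tested. None of the 11 was called by either threshold, and in the edgeR fit on these filtered counts 0 had an unadjusted p of 0.05 or less, as did 0 with DESeq2. Their median log2 fold change was -0.02, against -0.01 over all 2438 tested genes, with 6 fitted lower and 5 fitted higher. The groups did not overlap for 15 of the 37 genes with a count, of which 8 (21.6%) were lower and 7 (18.9%) were higher in the clones, beside 15.8% and 17.6% of all 10024 genes with a count.

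In the nuclear complex, Crebbp, an acetyltransferase coactivator, had 24 and 47 control counts, set against 23 and 21 in the clones. Its log2 fold change was -0.75 ± 0.36 (SE; edgeR adjusted p = 0.339), the lowest adjusted p among the 11 genes. Its unadjusted p of 0.0503 lay at the threshold and fell to between 0.0389 and 0.0468 in 4 alternative edgeR fits, with adjusted p from 0.322 to 0.372. Rbpj itself had 8 and 20 counts for controls 1 and 2, then 31 for clone A and 19 for clone B. Its log2 fold change was 0.78 ± 0.44 (SE; edgeR adjusted p = 0.461). The groups did not overlap for either gene, and clone A was the highest library for Rbpj.

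Receptor cleavage is carried out by Adam metalloproteases and by gamma-secretase. Adam17 had 14 and 15 control counts, set against 14 and 17 in the clones, with a log2 fold change of -0.02 ± 0.48 (SE). Ncstn, the nicastrin subunit of gamma-secretase, had 5 and 10 control counts, set against 13 and 17 in the clones, and had the highest fitted value of the 11 genes at 0.92 ± 0.58 (SE; edgeR adjusted p = 0.521). Hdac1, a histone deacetylase, had 11 and 12 control counts, set against 2 and 7 in the clones, the lowest fitted value at -1.45 ± 0.78 (SE; edgeR adjusted p = 0.431). Its log2 fold change was -0.82 without clone A, where Snw1 was lower at -1.31, and -2.55 without clone B.

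Ccnd1 encodes cyclin D1, which Notch can induce in some tissues, and had 96 and 131 control counts, set against 172 and 145 in the clones. Its groups did not overlap, and its log2 fold change was 0.38 ± 0.25 (SE; edgeR adjusted p = 0.550). Lfng, a Fringe glycosyltransferase that tunes ligand choice, had 3 and 13 control counts, set against 4 and 3 in the clones. Numbl, an endocytic Notch antagonist, had 9 and 6 control counts, set against 4 and 5 in the clones. Neither was kept by the filter, and without a filter the edgeR adjusted p was 0.895 for both Lfng and Numbl. The other ligands Dll3, Dll4, Dlk1 and Cntn1 had 0 counts in all libraries, and Dner had no row.

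Notch4, the receptor of endothelial cells, had 2 and 3 counts for controls 1 and 2, then 13 for clone A and 9 for clone B. Pooled over each group, the clones had 4.17 times the control level, with a 95% exact interval from 1.54 to 14.1 for counting error only. It was not kept by the filter. Without a filter, the edgeR test gave an unadjusted p of 0.0174 and an adjusted p of 0.441. The authors' mean for Notch4 was 14, so that its deposited counts were 126 times those given by the share of 0.384%. Endothelial and mural markers summed to 96.4 and 87.1 CPM in controls 1 and 2, 46.3 CPM in clone A and 0 CPM in clone B. Of these markers, Pecam1, Cdh5, Kdr and Rgs5 were listed at 0 in all libraries. Gpsm3, which lies close to Notch4 in GRCr8, had 0, 6, 5 and 4 counts in control 1, control 2, clone A and clone B. The part of a neighbouring gene in the Notch4 counts was not tested.

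**Figure D4:**
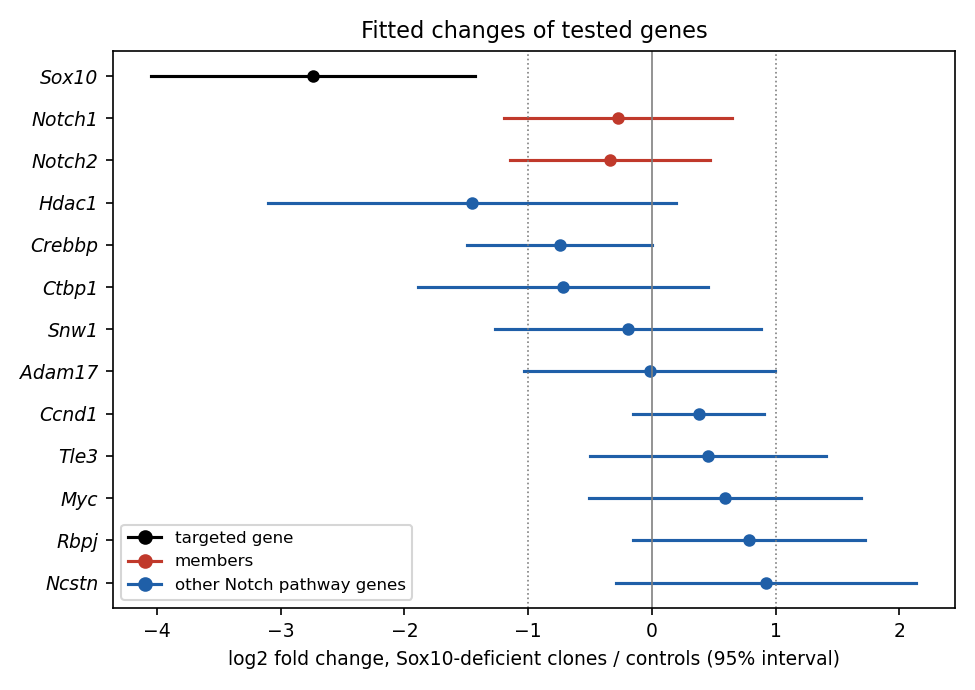
Log2 fold changes of the clones against the controls, with 95% intervals from edgeR's quasi-likelihood test, for Sox10 (black), the 2 tested members (red) and 10 other tested pathway genes (blue), and dotted lines at 2-fold changes. The intervals of Notch1 and Notch2 include 0, and so do those of all 10 other pathway genes shown.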

How the data were processed

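RNA-Seq libraries of 2 control and 2 Sox10-deficient OLN93 samples were analysed. The authors aligned reads with STAR 2.5.1 (build rn5) and counted them per gene with HTSeq on Ensembl gene identifiers. They deposited raw counts per gene symbol for each library, without summary rows, summing to between 60951 and 104017. How identifiers became symbols, and the strand setting, are not given in the sources used here. A second deposited table by the authors holds a mean normalized count per Ensembl gene, given in whole numbers and handled as a score, beside fold changes, standard errors, Wald statistics and p-values of the authors' own comparison, which were not used.

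The count test was the quasi-likelihood test of edgeR 4.0.16 under R 4.3.3 (filterByExpr, TMM scaling, glmQLFit and glmQLFTest, prior count 0.125), with condition as the sole term and Benjamini-Hochberg adjustment over 2438 genes. Standard errors were derived from the F statistic. The code was tested on simulated data. Pooled ratios have exact 95% intervals from the binomial distribution (scipy 1.17.1, Python 3.11.15). Counts of a gene in replicate libraries differed by more than counting noise, with a chi-square per degree of freedom of 2.18 in the controls and 2.20 in the clones. The methods describe the controls as clones, and p-values measure the spread between these samples.

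Alternatives were DESeq2 1.42.0, its size factors or library totals, other filters, other prior counts, a replicate block, and leaving out each library. Named genes are all members, Sox10 and other pathway genes called or with most counts in their role. Further genes were chosen after their values were seen. These are Rbpj, Ncstn, Hdac1, Snw1, Cnp, Cspg4, Pdgfra, Nkx2-2, Mog, Olig1, Olig2, Csf1r, Hes7, Nrarp, Rfng, the neighbouring genes and the other ligands. The members and gene lists were chosen with earlier results of these data known. Binding sites of the study were not analysed here. The values of 1 further pathway gene are not reported here.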

Additional observations from a re-analysis of the deposited data

Results flagged for a closer look

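Hey1 had 0 counts in all 4 libraries, but the authors' mean normalized count for it was 47, a signal in a column that the comparisons did not use. At the median share of 0.384%, this mean gives 0.181 counts per library, which is below the floor of 3 counts, so that the deposited counts could not show it. The column holds a mean over all libraries, and whether the reads came from controls or clones cannot be read from it.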

How the results depend on the processing

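No member was called under any alternative run, which left between 2 and 7 members to test. Every count of called genes compared here was 0 in the main result. With other prior counts the p-values stayed the same, so that those fits hardly bear on the calls. Of 78 comparisons of a count of called genes with its value under an alternative, 75 were the same. The exceptions concern other pathway genes that were higher by an unadjusted p and 2-fold, which numbered 0 in the main result, 1 without a filter and 1 with at least 10 counts in total (Notch4 in both), and between 0 and 1 when each library was left out (Rbpj without clone B). The log2 fold change of Notch1 ranged from -0.61 to 0.24 when each library was left out and was 0.24 without control 2. That of Notch2 ranged from -0.44 to -0.27 over the same fits. Prior counts of 2 and 5 gave -0.25 and -0.22 for Notch1, the former added after seeing the data. The replicate numbers of the labels name the samples only, and the deviations of samples with the same number correlated at 0.12 over the tested genes. With the replicate block, the log2 fold change was -0.26 for Notch1 and -0.34 for Notch2, 0 members were called, and the adjusted p of Sox10 rose to 0.13. The pooled ratio of Hes1 without control 1 could not be given, because no control count was left. Low or absent counts kept Jag1, Dll1, Hes1, Hes5, Hes6 and Hey1 out of the main test. Notch1 and Notch2 were tested, but a 2-fold decrease was not excluded for either. As folds of the control level, their intervals in the main fit ran from 0.437 to 1.56 and from 0.452 to 1.39. With the larger DESeq2 SE of Notch1, 0.680, a 2-fold increase of this gene was not excluded. Notch3 had an authors' mean of 0, and Jag2, without a row, had an authors' mean of 1. The causes of the changes between fits were not tested.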

Other observations

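Values of 3 of the 58 other pathway genes, which were counted above but not named, are given here. Hes7, the oscillating repressor of the segmentation clock, had 6 counts in clone B and 0 in the other libraries, with an authors' mean of 17, so that its deposited counts were 23.0 times those given by the share of 0.384%. Nrarp, a Notch target that feeds back on the receptor's intracellular domain, had 7 and 5 counts in the controls against 1 in clone A and 4 in clone B, which did not overlap between groups in CPM. Rfng, a Fringe gene with an authors' mean of 310, had 0 counts in all 4 libraries.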
